A study of Rattus norvegicus with 4 samples.

Results

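The genes described here are the SLC25 mitochondrial solute carriers of the rat, measured in INS-1 cells, a line that secretes insulin and was established from an insulinoma of the rat. They were chosen by name: every probe set whose single gene symbol begins with Slc25a and a digit was taken, with the brightest probe set kept where a gene had several. The rule gave 40 genes with 1 probe set each, among 14557 genes that carry a single symbol on the array. By RefSeq, 38 of the 40 are protein-coding and 2 are pseudogenes, Slc25a5-ps7 and Slc25a39-ps5.

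The culture medium held 11.2 mM glucose (2 arrays) or 22.4 mM glucose (2 arrays) for 7 days, the higher concentration being the glucotoxic condition of the study. All 4 arrays hold total RNA of the same unmodified line, and the labels give no other agent. The titles number the arrays of each group as replicates 1 and 2 without saying whether they came from separate cultures, so the spread that p-values measure is that of these arrays and may be technical alone. INS-1 is a tumour line, and it serves as a model of the beta cell rather than as primary tissue.

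Mitochondrial carriers are small inner-membrane proteins built from a repeated module, and most exchange one metabolite of the matrix for another of the intermembrane space. They pass ADP, ATP and phosphate for respiration, citrate, malate and oxoglutarate between the tricarboxylic acid cycle and the cytosol, amino acids, cofactors and iron. In beta cells the export of citrate and malate and the malate-aspartate shuttle are known as links between glucose oxidation and the cytosol during insulin secretion.

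Promoters are shown for the genes whose difference between glucose groups had the smallest unadjusted p-values and for which the RefSeq promoter table of build GRCr8 had an entry. Each runs 5′ to 3′ on the gene's own strand, from 250 bases before the annotated start to 50 bases after it, and capitals mark the letters CCAAT or their reverse complement. The first is Slc25a10 at chr10:106264146-106264445 (plus strand), the second Slc25a38 at chr8:128712930-128713229 (plus strand), and the last Slc25a17 at chr7:114767114-114767413 (minus strand). Slc25a32, the remaining gene of this kind, is named only.
Slc25a10: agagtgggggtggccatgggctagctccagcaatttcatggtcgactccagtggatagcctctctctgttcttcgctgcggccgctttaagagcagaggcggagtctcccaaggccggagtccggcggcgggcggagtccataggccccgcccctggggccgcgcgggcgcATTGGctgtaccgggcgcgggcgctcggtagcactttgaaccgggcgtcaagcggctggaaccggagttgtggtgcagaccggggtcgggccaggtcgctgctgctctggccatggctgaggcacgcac
Slc25a38: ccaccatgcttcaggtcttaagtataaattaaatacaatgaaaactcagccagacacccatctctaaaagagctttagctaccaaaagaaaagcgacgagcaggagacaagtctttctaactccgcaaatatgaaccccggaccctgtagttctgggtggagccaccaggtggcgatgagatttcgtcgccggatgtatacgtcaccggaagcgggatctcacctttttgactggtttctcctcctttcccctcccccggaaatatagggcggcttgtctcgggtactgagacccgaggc
Slc25a17: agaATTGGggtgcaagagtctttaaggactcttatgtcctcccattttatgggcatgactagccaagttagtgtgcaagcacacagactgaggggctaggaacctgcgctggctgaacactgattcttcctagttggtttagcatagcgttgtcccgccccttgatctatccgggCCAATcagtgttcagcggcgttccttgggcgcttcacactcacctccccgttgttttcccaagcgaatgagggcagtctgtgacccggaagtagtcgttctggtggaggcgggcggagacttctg
The Slc25a10 window held 1 CCAAT match, in reverse, whose first base on the printed strand lies at -79. The Slc25a17 window held 2, the nearer one at -75, and the Slc25a38 window held 0. GC content was 68.0% in the Slc25a10 window, 54.0% in that of Slc25a17 and 50.3% in that of Slc25a38.

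Over the family, 32 of the 40 genes had an entry, with 33 promoters because Slc25a43 had a pair. Searched on both strands, CCAAT was in 17 of the 33 (51.5%), against 37.5% of all 33469 promoters of the same length. TATAAA was in 1 of the 33, Slc25a38, against 14.2% of all. CACGTG, the E-box core, was in 4, those of Slc25a2, Slc25a31, Slc25a33 and Slc25a51, against 6.42% of all. The cAMP response element TGACGTCA was in that of Slc25a33 alone, against 1.83% of all, and the estrogen-related receptor element TCAAGGTCA in 0 of the 33, against 0.433%. The median GC content was 58.3% in the family and 51.7% in all promoters. These are counts of letters in fixed windows and not binding sites. The 33469 promoters were not matched to the family in GC content or gene type, so the shares show nothing particular to the family.

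Each array gave a log2 signal for 36685 probe sets, with array medians from 4.73 to 4.80. Signals of different probe sets are not on a common scale, so levels are compared only within a gene. The median of all values was 4.77. In 12 of the 40 carriers, called dim here, the mean over the 4 arrays lay below it. Whether any signal exceeded background could not be read from the table. A difference in these dim genes can be understated. Of 7 beta cell markers 6 were named on the array, with mean signals from 6.85 to 12.43, and Pdx1 was not analysed here. Of 4 markers of other islet cells, only the glucagon gene Gcg, with a mean of 11.13, was above the median of all values. Sst (4.49), Ppy (4.47) and Ghrl (4.09) were below it. The 2 stromal markers named on the array, Col1a1 (5.32) and Col3a1 (4.90), were above it. All 5 acinar and duct markers and all 4 immune markers were below it. The median difference between glucose groups was -0.16 over the beta cell markers and lay from -0.081 to 0.060 over the lists of other cell types. Among the former the insulin gene Ins2 stood out with a difference of -1.84 (SE 0.11), which passed in limma's fit of the probe sets with 1 symbol (adjusted p = 0.0102) and not in that of all probe sets (adjusted p = 0.218). The other insulin gene, Ins1, went the other way, with a difference of 0.18 (SE 0.11) and no overlap. Iapp, Slc2a2, Slc30a8 and Nkx6-1 differed by -0.19, -0.13, -0.24 and 0.014.

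Replicate 1 of 11.2 mM stood apart from the other arrays, in the carriers as in the whole table. Over the 40 carriers its mean absolute log2 difference from replicate 2 of the same group was 0.239, and from the 22.4 mM arrays it was 0.249 and 0.260. Replicate 2 of 11.2 mM differed from the 22.4 mM arrays by only 0.143 and 0.178, which is less than from its own replicate. The 22.4 mM arrays differed from each other by 0.116. Listed targets of the transcription factor ATF4 marked the same array. Over the 7 measured, replicate 1 of 11.2 mM exceeded replicate 2 within a gene by a median of 2.07. The gap ran from 0.31 in Sesn2 to 3.69 in Trib3. Trib3 had 8.75 on that array and 5.06, 5.08 and 5.12 on the others, and Sesn2 had 9.27 against 8.96, 8.81 and 9.13. The part of that array in the differences below was not tested. Leaving it out turned the sign of the difference or changed its size by over 1.5 times in 26 of the 40 carriers, 65%, against 65.3% of the probe sets with 1 symbol. Values without it are given below for many of these.

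Across the family, higher and lower genes were in balance and no carrier passed the test. In 20 genes the difference, 22.4 mM minus 11.2 mM on the log2 scale, was positive and in 20 it was negative, with a median of 0.0030 and a range from -0.37 to 0.62. Over all probe sets the median difference was -0.0027. Limma with Benjamini-Hochberg adjustment over the 36685 probe sets called 0 carriers and 0 probe sets in all (0% called), where 3344 had an unadjusted p under 0.05. The smallest adjusted p of a carrier was 0.393. In a fit of the 14824 probe sets with 1 symbol, which called 62 (0.418%), the smallest was 0.164, and again 0 carriers passed.

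At an unadjusted p under 0.05 stood 4 of the 40 carriers, 10%, against 9.55% of the probe sets with 1 symbol and 9.12% of all probe sets. They were Slc25a10, with a positive difference (4.69% and 4.36% of these backgrounds were positive at that p), and Slc25a38, Slc25a32 and Slc25a17, with negative ones (4.86% and 4.75%). The groups did not overlap in 15 of the 40, 7 higher and 8 lower at 22.4 mM. That is 37.5%, against 44.5% of the probe sets with 1 symbol and 40.6% of all. Both shares lay near their background, and so they are no result about the family. Without replicate 2 of 11.2 mM the number at an unadjusted p under 0.05 was 11 (27.5%, against 16.7% of the probe sets with 1 symbol), and without replicate 1 it was 5 (12.5%, against 7.11%). Without replicate 1 or 2 of 22.4 mM it was 1 (2.5%, against 4.30%) or 2 (5%, against 4.08%). With an array left out, 1 group holds a single array that is assumed to vary like the other group. The spread behind these p-values is then that of the intact pair, moderated by limma toward that of all probe sets.

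**Figure D1:**
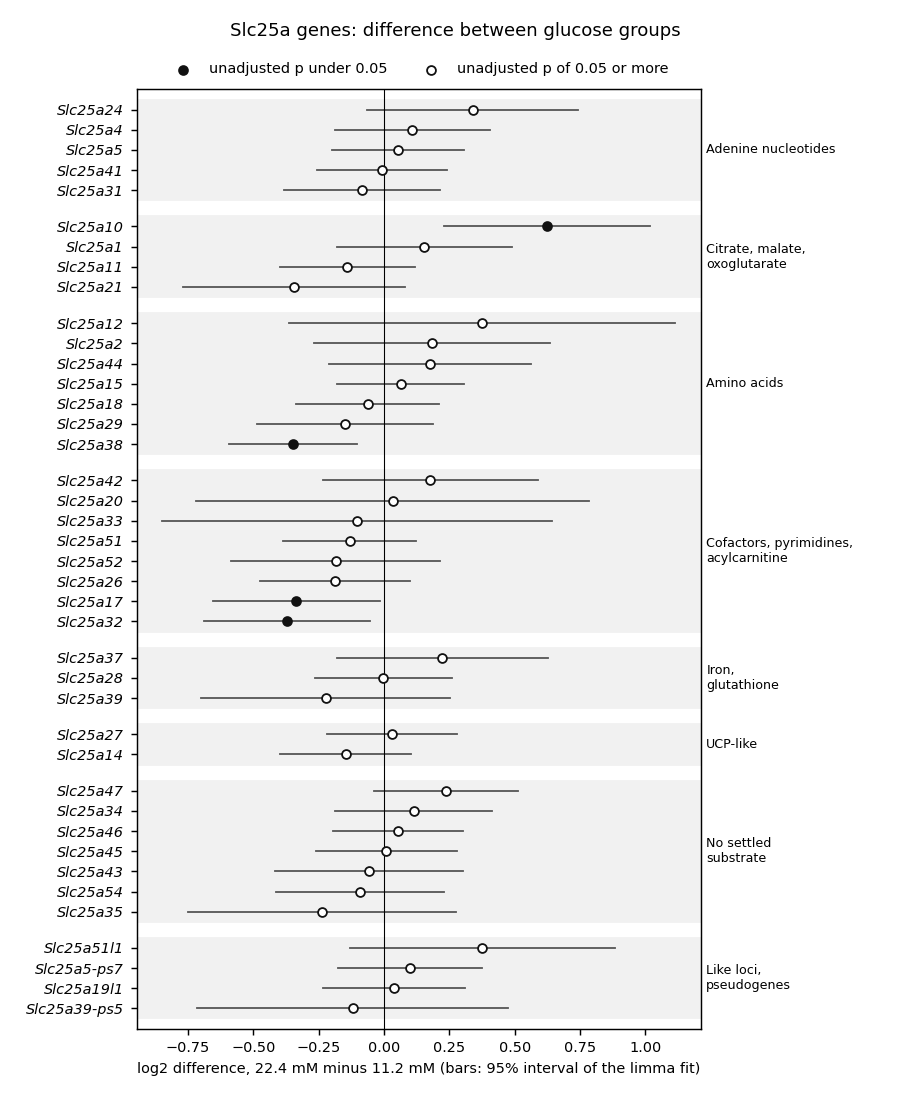
Log2 difference (22.4 mM minus 11.2 mM) of the 40 Slc25a genes, grouped by transported substrate, with 95% intervals of the limma fit over 4 arrays. Filled points have an unadjusted p under 0.05. Slc25a10 lies farthest to the right at 0.62, and Slc25a32, Slc25a38 and Slc25a17 lie at -0.37, -0.35 and -0.33.

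Among the citrate, malate and oxoglutarate carriers, the dicarboxylate carrier gene Slc25a10 had the largest difference of the family. Its protein exchanges malate or succinate for phosphate. Slc25a10 (probe set 17653324) had log2 signals of 10.81 and 11.16 at 11.2 mM and of 11.58 and 11.65 at 22.4 mM. Both high-glucose arrays lay above both others, and the 22.4 mM arrays were closer to each other than the 11.2 mM arrays were. The means were 10.99 ± 0.25 (SD, n = 2) and 11.61 ± 0.049 (SD, n = 2), a ratio of 1.54-fold in favour of 22.4 mM. The log2 difference was 0.62 with a 95% interval from 0.23 to 1.02, which did not pass in limma (unadjusted p = 0.0101, adjusted p = 0.393). Leaving out replicate 1 of 11.2 mM gave 0.45 and leaving out replicate 2 gave 0.80, while the same for the 22.4 mM replicates gave 0.66 and 0.59. Over the alternatives tried, including fits without 1 array, the unadjusted p of Slc25a10 ran from 0.00342 to 0.0477 and the adjusted p from 0.164 to 0.861.

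The other carriers of this group had smaller differences, of which that of Slc25a1 was positive too. Slc25a1, the citrate carrier that exports citrate in exchange for malate, had 7.49 and 7.75 at 11.2 mM and 7.75 and 7.80 at 22.4 mM. Only replicate 1 of 11.2 mM was low in this gene, and the difference of 0.15 (SE 0.13) was 0.022 without that array. Slc25a11, the oxoglutarate carrier of the malate-aspartate shuttle, had 10.36 and 10.39 against 10.19 and 10.29. Its groups did not overlap, with a small negative difference of -0.14 (SE 0.098). Slc25a21, which carries oxodicarboxylates of lysine and tryptophan breakdown, had 4.43 and 4.21 against 3.80 and 4.14. These signals were dim and did not overlap, for a difference of -0.35 (SE 0.16) that moved to -0.17 on leaving out replicate 1 of 22.4 mM and to -0.52 on leaving out replicate 2. In this group of 4 genes the median difference was 0.0072, and the glucose groups did not overlap in 3, 1 higher and 2 lower, where 44.5% of the probe sets with 1 symbol had no overlap. So few genes show nothing particular to the group.

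Adenine nucleotide carriers showed small differences apart from Slc25a24. Slc25a4, which encodes the ADP/ATP carrier ANT1, had 11.46 and 11.65 at 11.2 mM and 11.68 and 11.64 at 22.4 mM. The groups overlapped, and the difference was 0.11 with a 95% interval from -0.19 to 0.40. Only replicate 1 of 11.2 mM was low, and the difference of Slc25a4 was 0.012 without it. Slc25a5, which encodes ANT2, had a log2 difference of 0.054 whose interval ran from -0.20 to 0.31. For both genes the interval leaves out a 2-fold change in either direction, though it does not show that their transcripts were equal.

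Slc25a24, a calcium-regulated carrier that exchanges ATP-Mg for phosphate, had 7.24 and 7.59 at 11.2 mM and 7.69 and 7.82 at 22.4 mM. The groups did not overlap, and replicate 1 of 11.2 mM was the lowest array. The difference was 0.34 (SE 0.15, limma unadjusted p = 0.0816, adjusted p = 0.600) and it was 0.16 without that array and 0.52 when replicate 2 of 11.2 mM was left out. Slc25a31, the ADP/ATP carrier of testis, and Slc25a41, an ATP-Mg carrier without the calcium-binding domain, were dim, with means of 3.76 and 3.93 and differences of -0.082 and -0.0084. Without replicate 1 of 11.2 mM these were 0.0032 and -0.034.

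**Figure D2:**
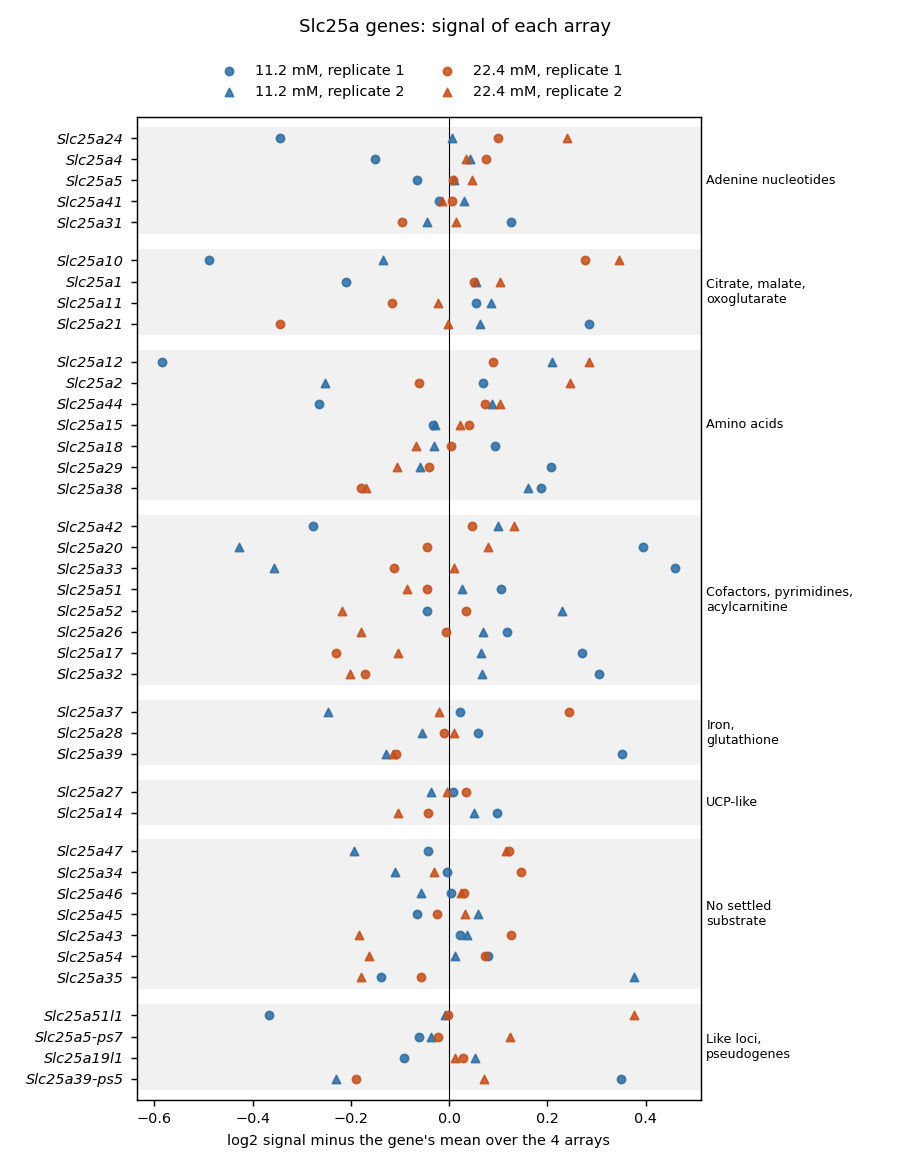
Log2 signal of each Slc25a gene on each of the 4 arrays, drawn as the distance from the gene's own mean, with 11.2 mM in blue and 22.4 mM in orange. The blue circle, replicate 1 of 11.2 mM, lies far from the blue triangle in Slc25a20, Slc25a33 and Slc25a12, where these replicates differ by 0.82, 0.82 and -0.79.

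Among the amino acid carriers, the glycine carrier gene was lower at 22.4 mM on both arrays and the aspartate/glutamate carrier gene followed a single array. Slc25a38 (17848874), whose protein supplies mitochondrial glycine for heme synthesis, had 6.30 and 6.28 at 11.2 mM and 5.94 and 5.95 at 22.4 mM. Replicate 1 minus replicate 2 was 0.027 at 11.2 mM and -0.011 at 22.4 mM, so the groups lay apart by many times those gaps. The difference was -0.35 with a 95% interval from -0.59 to -0.10 (1.27-fold lower), which did not pass in limma (unadjusted p = 0.0153, adjusted p = 0.428). Leaving out any 1 array gave from -0.36 to -0.33. Over all alternatives its unadjusted p ran from 0.00924 to 0.0830 and its adjusted p from 0.220 to 0.902.

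Slc25a12 encodes aralar, the calcium-stimulated aspartate/glutamate carrier of the malate-aspartate shuttle. It had 9.76 and 10.55 at 11.2 mM and 10.43 and 10.63 at 22.4 mM. Replicate 2 of 11.2 mM lay between the high-glucose arrays, and replicate 1 lay under all of them. The difference of 0.37 (SE 0.28) became -0.022 once replicate 1 was left out and 0.77 once replicate 2 was, so neither its sign nor its size was settled by these arrays. Slc25a44, the branched-chain amino acid carrier, had the same layout, with 8.20 and 8.55 against 8.54 and 8.57, and its difference of 0.18 was 4e-04 without replicate 1.

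The other amino acid carriers differed little. Slc25a15, the ornithine/citrulline carrier, was the most even of them, with 8.71 and 8.71 at 11.2 mM and 8.78 and 8.76 at 22.4 mM. Its groups did not overlap, yet the difference was only 0.063 (SE 0.093). The ornithine carrier Slc25a2 differed by 0.18 (SE 0.17), the glutamate carrier Slc25a18 by -0.063 and the basic amino acid carrier Slc25a29 by -0.15, and the latter pair was dim. Without replicate 1 of 11.2 mM, Slc25a2 differed by 0.34, Slc25a18 by -2e-05 and Slc25a29 by -0.015.

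Cofactor, pyrimidine nucleotide and acylcarnitine carriers were the group with the most negative differences, 6 of 8, with a median of -0.16. The groups did not overlap in 4 of the 8 (50%, against 44.5% of the probe sets with 1 symbol), all lower at 22.4 mM, and 2 of the 8 had an unadjusted p under 0.05 in limma (25%, against 9.55%). With 8 genes these shares are a description and show nothing particular to the group. Slc25a32 (17837024), which carries folate or FAD into mitochondria, had 7.25 and 7.01 at 11.2 mM and 6.77 and 6.74 at 22.4 mM. Both high-glucose arrays were low and close together, while the 11.2 mM arrays were 0.24 apart. The difference was -0.37 with a 95% interval from -0.69 to -0.055 (limma unadjusted p = 0.0300, adjusted p = 0.486), with -0.25 on leaving out replicate 1 of 11.2 mM and -0.49 on leaving out replicate 2.

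Slc25a17 (17839314), a peroxisomal rather than mitochondrial member that carries cofactors such as coenzyme A, had 8.73 and 8.53 at 11.2 mM and 8.23 and 8.36 at 22.4 mM. The lowest 11.2 mM array exceeded the highest 22.4 mM array, but these lay closer together than the 11.2 mM replicates, which were 0.21 apart. The difference between the group means was -0.33 (95% interval from -0.65 to -0.017, limma unadjusted p = 0.0427, adjusted p = 0.529). It was -0.23 without replicate 1 of 11.2 mM. Slc25a26, the S-adenosylmethionine carrier, differed by -0.19 (SE 0.11) and Slc25a51, the NAD carrier, by -0.13 (SE 0.097), with both arrays of 22.4 mM below both of 11.2 mM in each gene.

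Slc25a20 and Slc25a33 had mean differences near 0 over arrays that did not resemble each other. Slc25a20, the carnitine/acylcarnitine carrier that brings long-chain acyl groups to beta-oxidation, had 8.24 and 7.42 at 11.2 mM and 7.80 and 7.93 at 22.4 mM. Both high-glucose arrays lay between the low-glucose arrays, and the difference of 0.033 turned to 0.45 when replicate 1 of 11.2 mM was left out and to -0.38 when replicate 2 was. Slc25a33, a pyrimidine nucleotide carrier, had 7.85 and 7.03 against 7.27 and 7.40, with a difference of -0.10 that turned to 0.31 and -0.51 on leaving out replicate 1 or 2 of 11.2 mM. In both genes, therefore, the value at 11.2 mM itself was not fixed by these replicates. The coenzyme A carrier Slc25a42 had replicate 1 of 11.2 mM low instead, with 5.65 and 6.02 against 5.97 and 6.06. Slc25a52, a paralogue of the NAD carrier, was dim, with a mean of 3.12 and a difference of -0.19.

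Iron and glutathione carriers overlapped between the groups in all 3 genes measured. Slc25a39, which carries glutathione into mitochondria, had 8.89 and 8.41 at 11.2 mM and 8.44 and 8.43 at 22.4 mM. Replicate 1 of 11.2 mM alone was high, and the difference of -0.22 (SE 0.18) was 0.018 without it. Of the iron importers, Slc25a28 (mitoferrin 2) differed by -0.0020 (SE 0.10) and Slc25a37 (mitoferrin 1), which was dim, by 0.22 (SE 0.15).

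The uncoupling-protein-like carriers were steady across arrays. Slc25a14, also known as UCP5, had 7.66 and 7.61 at 11.2 mM and 7.52 and 7.46 at 22.4 mM, a difference of -0.15 (SE 0.096) without overlap. Slc25a27, also known as UCP4, had a difference of 0.030 (SE 0.095) within a range from 6.43 to 6.50 over all arrays.

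Of the 7 members without a settled substrate, 4 were dim. Slc25a47 had 4.65 and 4.50 at 11.2 mM and 4.81 and 4.81 at 22.4 mM. Its groups did not overlap, for a difference of 0.24 (SE 0.11). Slc25a35 had 5.18 and 5.69 against 5.26 and 5.13, where replicate 2 of 11.2 mM alone was high. Its difference of -0.24 was 0.019 without that array and -0.49 without replicate 1. Slc25a46, an outer-membrane member tied to mitochondrial shape, differed by 0.053 and Slc25a34 by 0.11, and the dim Slc25a43, Slc25a45 and Slc25a54 by -0.057, 0.0080 and -0.091.

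The like loci and pseudogenes can share sequence with their parent genes, and whether their probe sets share signal was not tested, since no probe sequence was used. Slc25a5-ps7, 1 of 9 numbered pseudogenes of Slc25a5 in RefSeq, was not dim, with 10.39 and 10.42 at 11.2 mM and 10.43 and 10.58 at 22.4 mM. Its difference was 0.10, beside 0.054 for Slc25a5 itself. Slc25a39-ps5, 1 of 8 such copies of Slc25a39, had 6.45 and 5.87 against 5.91 and 6.17. In Slc25a39-ps5, as in Slc25a39, replicate 1 of 11.2 mM was the highest array. Slc25a51l1 had 5.14 and 5.50 at 11.2 mM and 5.51 and 5.88 at 22.4 mM. The groups of Slc25a51l1 were barely apart, at 5.50 against 5.51, and the difference of 0.38 (SE 0.19) was opposite in sign to the -0.13 of Slc25a51. Without replicate 1 of 11.2 mM, Slc25a51l1 differed by 0.20 and Slc25a39-ps5 by 0.17. Slc25a19l1 was dim, with a mean of 2.99 and a difference of 0.039.

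Of the 49 carrier symbols of the family that were looked up, 13 had no probe set named on this array and were not analysed here. They include Slc25a3, the phosphate carrier, Slc25a13, which encodes the aspartate/glutamate carrier citrin, Slc25a22, a glutamate carrier, and the ATP-Mg carriers Slc25a23 and Slc25a25.

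Variation within 11.2 mM was as large as the difference between groups in many carriers. The median absolute gap between the 11.2 mM replicates was 0.18 over the 40 carriers, against 0.14 over the probe sets with 1 symbol. At 22.4 mM it was 0.079 over the carriers and 0.094 over the probe sets with 1 symbol. The gap at 11.2 mM exceeded the difference between groups in 24 of the 40 carriers (60%), against 57.4% of the probe sets with 1 symbol. Leaving out replicate 1 of 11.2 mM turned the sign of 9 carriers, replicate 2 that of 3, and replicates 1 and 2 of 22.4 mM that of 2 and 5. In 26 of the 40 (65%) the sign was kept whichever array was left out, against 56.1% of the probe sets with 1 symbol and 52.7% of all.

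**Figure D3:**
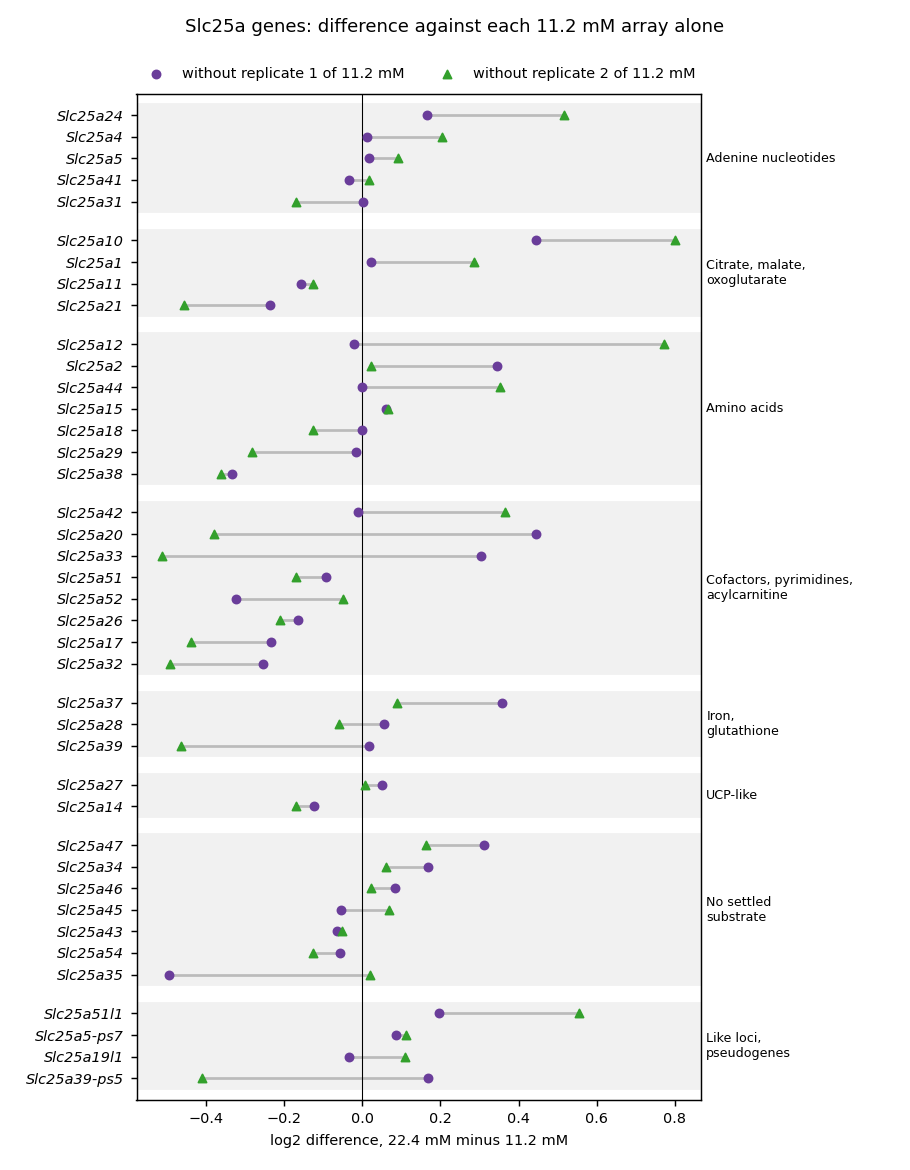
Log2 difference (22.4 mM minus 11.2 mM) of each Slc25a gene with replicate 1 of 11.2 mM left out (circles) or replicate 2 of 11.2 mM left out (triangles). In Slc25a10, Slc25a38, Slc25a32 and Slc25a17 both marks lie on the same side of 0, while in Slc25a20 they lie at 0.45 and -0.38.

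A few carriers are neighbours on a chromosome, with no other protein-coding gene between them in the RefSeq order. Slc25a54 and Slc25a24 on chromosome 2 differed by -0.091 and 0.34, Slc25a29 and Slc25a47 on chromosome 6 by -0.15 and 0.24, and Slc25a43 and Slc25a5 on chromosome X by -0.057 and 0.054. In each of the 3 pairs the differences had opposite signs, and in each pair at least 1 gene was dim.

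Genes that work beside the carriers were taken from a list of 51 symbols, of which 38 were named on the array. Of these, 4 had an unadjusted p under 0.05 in limma, 3 higher and 1 lower at 22.4 mM, and 0 passed when adjusted over all probe sets. That is 10.5%, against 9.55% of the probe sets with 1 symbol, and the median difference was 0.067. Gpd1, the cytosolic enzyme of the glycerol phosphate shuttle, had 9.94 and 9.97 at 11.2 mM and 10.96 and 10.96 at 22.4 mM. The replicates nearly coincided, and the signal was higher at 22.4 mM by a log2 difference of 1.00 (SE 0.093, limma adjusted p = 0.237). Gpd2 of the same shuttle was listed but not named on the array, as were the pyruvate carrier genes Mpc1 and Mpc2. Gpd1 passed in the fit of the probe sets with 1 symbol (limma adjusted p = 0.0283).

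The malate-aspartate shuttle enzymes showed no such difference. Mdh1 and Mdh2, the cytosolic and mitochondrial malate dehydrogenases, differed by 0.092 and 0.067, and the aspartate aminotransferases Got1 and Got2 by -0.17 and 0.14. Without replicate 1 of 11.2 mM the sign turned in Mdh2, to -0.028, and in Got1, to 0.032. None of these 4 had an unadjusted p under 0.05 in limma.

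Measured here were 9 enzymes on either side of the citrate, malate and pyruvate carriers. Of these, 8 had a positive difference (88.9%, against 49% of the probe sets with 1 symbol). The groups did not overlap in 6 (66.7%, against 44.5%). In 2 the unadjusted p in limma was under 0.05 (22.2%, against 9.55%), and 0 passed. The median difference of the 9 was 0.27, against -0.0036 over the probe sets with 1 symbol. In 5 of the 9 the gap between the 11.2 mM replicates exceeded the difference (55.6%, against 57.4%). Without replicate 1 of 11.2 mM the median was 0.12 with 7 positive. The list was chosen with earlier results of these data known, so these shares are a description and show nothing particular to it. Me1, the cytosolic malic enzyme, had 9.59 and 9.70 at 11.2 mM and 10.04 and 10.10 at 22.4 mM. Both high-glucose arrays were higher, with a difference of 0.42 (SE 0.10, limma unadjusted p = 0.00993, adjusted p = 0.392). Idh1, the cytosolic isocitrate dehydrogenase, had 9.10 and 9.39 against 9.58 and 9.65, a difference of 0.37 that was 0.23 without replicate 1 of 11.2 mM. The pyruvate carboxylase gene Pc differed by 0.41 (SE 0.21) and by 0.12 without that array. The ATP-citrate lyase gene Acly differed by 0.30 (SE 0.13), and by 0.16 without it. Idh3a and Cs differed by 0.27 and 0.19, Aco1 and Me2 by 0.092 and 0.089, and Idh2 by -0.036.

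In the remaining lists 1 gene had an unadjusted p under 0.05. It was Timm9, a chaperone that escorts carrier proteins to the inner membrane, with 7.77 and 7.43 at 11.2 mM and 7.17 and 7.18 at 22.4 mM. Both high-glucose arrays were lower, and the difference of -0.43 (limma adjusted p = 0.499) was -0.26 without replicate 1 of 11.2 mM. The other 5 genes of carrier import differed by -0.21 to 0.17. Ucp2, the uncoupling protein of beta cells, had 11.79 and 11.92 against 11.82 and 11.89, a difference of -1.5e-04 whose 95% interval ran from -0.27 to 0.27. The channels Vdac1, Vdac2 and Vdac3 of the outer membrane differed by 0.020, -0.11 and 0.094.

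Cpt1a, the enzyme that makes acylcarnitine for Slc25a20, had the same layout of arrays as that carrier at 11.2 mM. It had 8.25 and 7.13 at 11.2 mM and 8.06 and 8.09 at 22.4 mM. Replicate 1 of 11.2 mM exceeded replicate 2 by 1.12. The difference of 0.39 (SE 0.38) moved to 0.95 on leaving out replicate 1 and to -0.17 on leaving out replicate 2. Its inner-membrane counterpart Cpt2 differed by -0.28 (SE 0.12), without overlap.

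**Figure D4:**
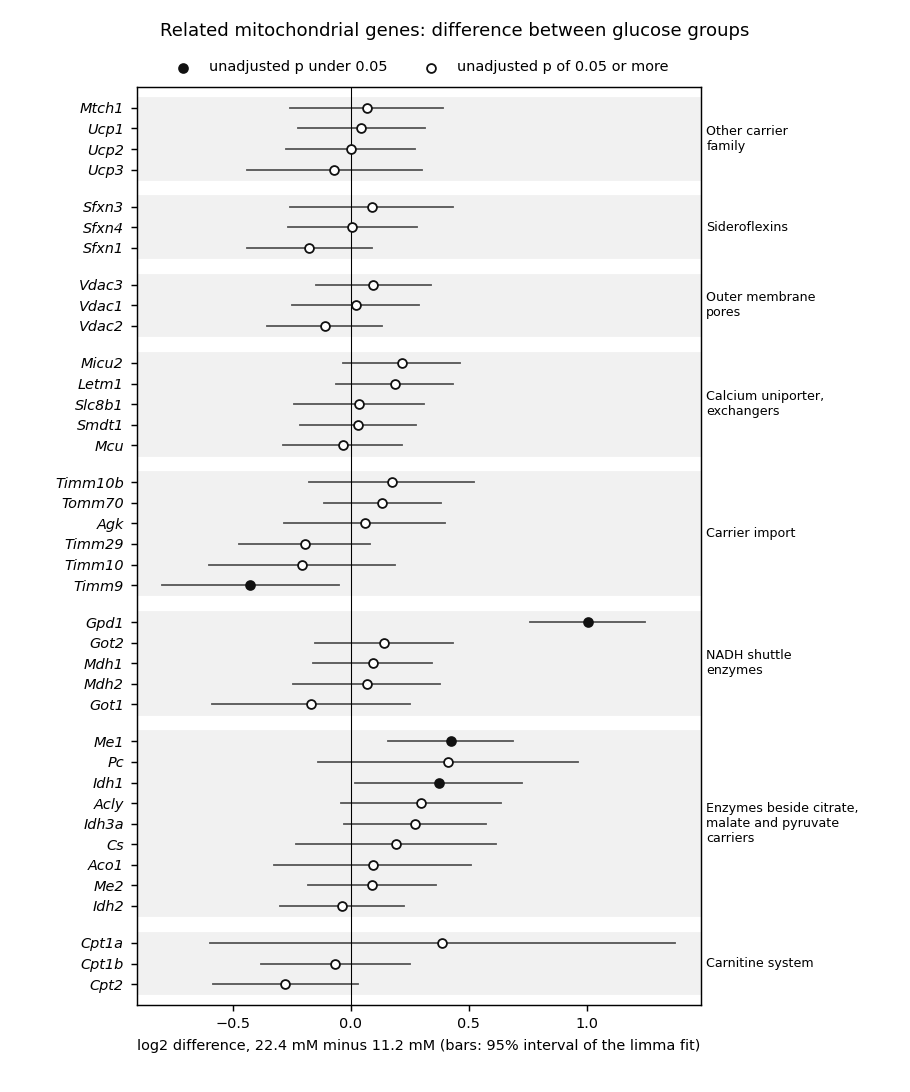
Log2 difference (22.4 mM minus 11.2 mM) of 38 genes that work beside the carriers, by function, with 95% intervals of the limma fit over 4 arrays. Filled points have an unadjusted p under 0.05. Gpd1 stands at 1.00 and Me1 at 0.42 on the higher side, and Timm9 at -0.43 on the lower side.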

How the data were processed

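Total RNA of 4 INS-1 samples was hybridized as biotin-labelled single-stranded cDNA to Affymetrix arrays, per the labels' protocols. The authors deposited 1 table of log2 values for 36685 probe sets. Base 2 was inferred from the values. Background correction, array normalization and software are not given by the sources that were used, and their effect on small differences is unknown. Precision is limited by having 4 arrays, with a typical (median) standard error of 0.12 for a difference.

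Symbols are those of the platform annotation, which can be old. It gives 14824 probe sets 1 symbol, and probe sets with several symbols were not named. All 40 members matched the RefSeq table of GRCr8 by Entrez identifier, and 0 symbols changed. That table was used for names and neighbours, and coordinates are given only for the promoters of the RefSeq promoter table.

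The comparison of 22.4 mM with 11.2 mM used limma 3.58.1 (lmFit and eBayes, R 4.3.3) as a two-sided test with 2 residual degrees of freedom, with p-values adjusted by Benjamini-Hochberg over all probe sets at a threshold of 0.05. No filter on dim signals was used. The code was tested on simulated data. Values of all arrays were given by rule for members at an unadjusted p under 0.05, for the 5 largest differences in each direction and for the 3 brightest, and for further members to show their layout. Genes beside the carriers were named likewise at an unadjusted p under 0.05 or a log2 difference of 0.5 or more, and others were added after their values were seen. The members and lists were chosen with earlier results of these data known. Alternatives were quantile normalization, fewer probe sets, an intensity trend, a replicate block and leaving out each array.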

Additional observations from a re-analysis of the deposited data

How the results depend on the processing

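Of the 10 alternatives, 6 could move the median difference of the carriers, which then ranged from 0.0018 to 0.043. The largest value, 0.043, was that of the 28 carriers at or above the median signal, a smaller set than the 40. The pooled SD between replicate arrays of the carriers' median signal was 0.054, and the median difference moved by less. In the 5 alternatives that recompute a difference, quantile normalization and leaving out each array, 58 of 60 differences of the 12 carriers chosen by rule kept their sign. In the others the difference is the same by construction. Under none of the alternatives did these carriers pass an adjusted p of 0.05. The 2 that turned were Slc25a12, -0.022 without replicate 1 of 11.2 mM (0.77 without replicate 2), and Slc25a35, 0.019 without replicate 2 of 11.2 mM (-0.49 without replicate 1). In Slc25a12 the array left out was the low one and in Slc25a35 the high one. Among probe sets with 1 symbol, 62 passed, against 0 of all probe sets. With an intensity trend 7 of the 38 genes beside the carriers had an unadjusted p under 0.05 in limma, against 4 in the main fit. The shares of the probe sets with 1 symbol were 9.96% and 9.55%. Without 1 array, the number of carriers and of genes beside them at an unadjusted p under 0.05 changed with the array left out. For the carriers these numbers are given above beside their background shares. Carriers without overlap numbered from 21 to 33 without 1 array (15 with all arrays). No background share was taken for 3 arrays, so these counts show nothing about the carriers. With 3 arrays a lack of overlap is easier to meet in any probe set. The p-values then rest on the spread of 1 pair, moderated by limma toward that of all probe sets. Same-numbered arrays did not deviate together (correlation of deviations -0.078 over 36685 probe sets), so the numbers were not taken to pair them. With a replicate block 2 carriers, Slc25a10 and Slc25a51l1, were higher at an unadjusted p under 0.05, and 2, Slc25a38 and Slc25a32, were lower. That is 10% of the carriers, against 7.76% of the probe sets with 1 symbol, and 0 probe sets passed when adjusted. Each carrier had 1 probe set, so the mean over probe sets changed nothing. Depth is not defined for arrays, and the 12 dim carriers could not be shown to be above background.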
